A study of Mus musculus with 8 samples.

Results

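The genes described here make, load and switch on major histocompatibility complex (MHC) class II, the surface molecule that shows peptides to CD4 T cells. They are 9 genes chosen by symbol: the chain genes H2-Aa, H2-Ab1 and H2-Eb1, the invariant chain gene Cd74, the peptide loaders H2-DMa and H2-DMb1, their inhibitors H2-Oa and H2-Ob, and the transactivator gene Ciita. All 9 were in the deposited table, which holds 13681 gene symbols, and all 9 passed the filter on low values (at least 1 FPKM in at least 2 libraries). Each gene is represented by its transcript entry with the highest mean over the libraries.

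RNA was sequenced from 8 mouse thymic lymphomas, T cell tumours of the thymus that arise in mice without p53. Every mouse was p53-/- and labelled C57BL/6, was 10 weeks old at injection, and had an adenovirus placed in the tumour 48 hours before collection. The ΔNp73-labelled group (genotype ΔNp73Δ/Δ;p53-/-) and the ΔNp63-labelled group (genotype ΔNp63Δ/Δ;p53-/-) had 3 libraries each and were given Ad-CRE-mCherry, which carries Cre recombinase. The 2 control libraries (genotype ΔNfl/fl;p53-/-) were given Ad-mCherry, without Cre, and their label does not say which gene is floxed. Virus and genotype therefore cannot be told apart in a comparison with control, and both comparisons share the same controls. How far Cre spread through each tumour is not in the labels, and nothing in them says that libraries came from separate animals, so p-values measure the spread between samples only. Replicate numbers were given in order of deposit and only name the libraries.

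Class II molecules are pairs of an alpha and a beta chain. In the mouse H2-Aa and H2-Ab1 encode the pair I-A, while H2-Ea and H2-Eb1 encode the pair I-E. The invariant chain fills the groove until endosomal proteases trim it, and H2-DM then exchanges the remaining fragment for a peptide, a step that H2-O holds back. CIITA does not bind DNA itself and acts through RFX, NF-Y and CREB proteins seated on shared promoter boxes. B cells, dendritic cells, activated macrophages and thymic epithelium carry class II in the mouse thymus, whereas mouse T cells as a rule do not.

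The promoters of the class II genes carry the boxes on which this shared control rests, so the stretch around them is shown for the members that have a pair of matches. Promoter windows were taken from RefSeq (GRCm38.p6), from 250 bases before to 50 after each start, and 6 of the 9 members had at least 1: H2-Aa, H2-Eb1, H2-DMa, H2-DMb1, H2-Oa and H2-Ob. Capitals mark the letters GNAAC, inside the X box that RFX contacts, and TGATTGG, which holds the inverted CCAAT of the Y box that NF-Y contacts.
H2-Aa: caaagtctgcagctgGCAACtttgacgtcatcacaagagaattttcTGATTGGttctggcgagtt
H2-Eb1: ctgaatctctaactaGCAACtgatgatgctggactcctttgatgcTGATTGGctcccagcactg
H2-DMb1: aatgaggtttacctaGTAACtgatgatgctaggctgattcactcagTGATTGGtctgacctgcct
H2-Oa: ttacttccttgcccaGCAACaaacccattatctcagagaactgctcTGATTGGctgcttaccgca
H2-Ob: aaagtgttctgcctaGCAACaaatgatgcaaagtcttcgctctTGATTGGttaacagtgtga

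The stretches lie at chr17:34287855-34287919 on the minus strand for H2-Aa and on the plus strand for the others, at chr17:34305761-34305824 for H2-Eb1, chr17:34153082-34153146 for H2-DMb1, chr17:34092288-34092352 for H2-Oa and chr17:34238803-34238864 for H2-Ob. The letters between the capitals number 26 in H2-Aa, H2-DMb1 and H2-Oa, 25 in H2-Eb1 and 23 in H2-Ob. The TGATTGG starts 45 to 63 bases before the annotated start in these 5 genes. Neither window of H2-DMa holds the pair.

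The letters and the spacing were written down after reading these promoters, so the match in the 5 genes is a description. Searched on both strands with 23 to 26 letters between them, the pair was in 36 of 32851 windows (0.11%) over all genes. GNAAC alone was in 84.8% of the windows and TGATTGG alone in 7.82%. H2-Eb2, a class II beta gene outside the set, also holds the pair, and H2-DMb2 holds TGATTGG without it.

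The class II genes shared a broad pattern across the libraries, which many other genes shared as well. All 9 were higher in each ΔNp73-labelled library than in both controls, by 1.33-fold (H2-Oa) to 2.04-fold (H2-DMb1) in mean FPKM. Of all genes tested, 27.7% lay wholly above control in that group. In the ΔNp63-labelled group replicates 1 and 3 were also high, while replicate 2 was the lowest of all 8 libraries for all 9 genes. By limma over all 12921 genes tested, 0 of the 9 passed an adjusted p of 0.05 in either comparison with control. None had an unadjusted p under 0.05, which 11.4% of all genes did on the higher side in the ΔNp73-labelled group and 5.96% in the ΔNp63-labelled group. Without ΔNp63-labelled replicate 2, all 9 rose in the ΔNp73-labelled group and 5 of 9 in the ΔNp63-labelled group, where 16.8% and 11.7% of all genes were called higher. That library was set apart with its values known. As it was lowest for all 9 genes, leaving it out raises their ΔNp63-labelled fold changes by construction. It also narrows the spread that both comparisons share, so calls without it are a description.

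Replicate 2 of the ΔNp63-labelled group was the lowest library for 32.9% of all genes tested, so its low rank is not particular to the class II genes. The highest entry of the targeted gene Trp63 was at 13.8, 11.3 and 6.38 FPKM in the ΔNp73-labelled libraries, 6.57, 1.05 and 9.91 in the ΔNp63-labelled ones and 5.21 and 3.38 in the controls, so it does not check the deletion, and directions rest on the labels. Values are FPKM (fragments scaled to transcript length and to sequencing depth), which may be compared between genes since they are per length, and the authors gave every library the same distribution. The depth of the libraries is unknown.

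**Figure D1:**
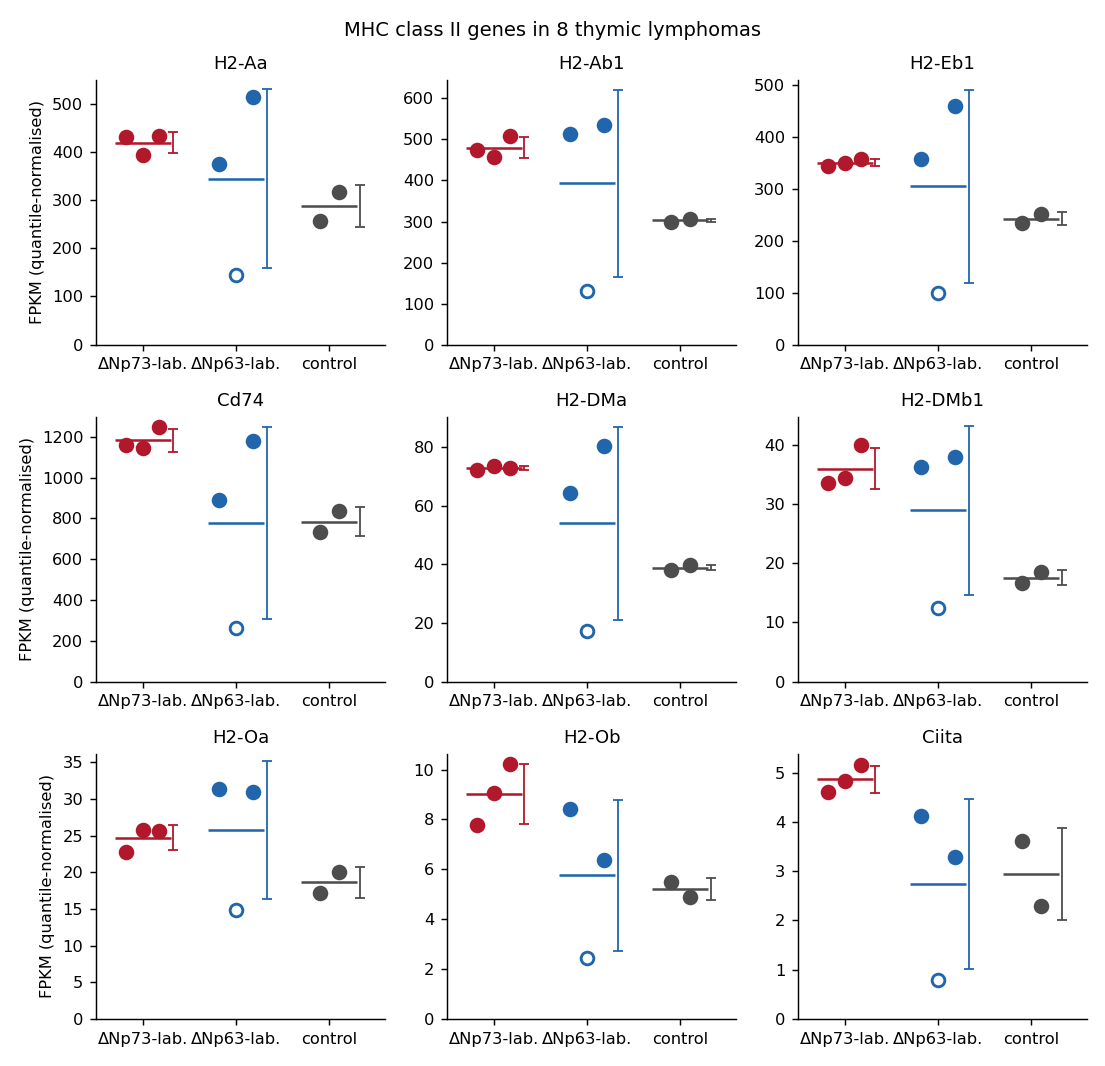
Quantile-normalised FPKM of the 9 class II genes (linear axes from 0) in the ΔNp73-labelled, ΔNp63-labelled and control libraries, with 1 point per library, a line at the group mean and a bar of 1 SD beside it. The open circle, ΔNp63-labelled replicate 2, is the lowest point in every panel, and all 3 ΔNp73-labelled points lie above both controls in every panel.

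The chain genes were among the most abundant transcripts of these tumours. H2-Ab1, the I-A beta chain, was at 474, 458 and 508 FPKM in the ΔNp73-labelled libraries, at 513, 130.3 and 536 in the ΔNp63-labelled ones and at 299.5 and 306 in the controls. All 3 ΔNp73-labelled libraries and ΔNp63-labelled replicates 1 and 3 lay above both controls, which differed from each other by 1.02-fold. The log2 fold change (log2FC, of FPKM + 1) was 0.66 in the ΔNp73-labelled group (SE 0.56, adjusted p = 0.518 by limma) and 0.12 in the ΔNp63-labelled group (SE 0.56, adjusted p = 0.95). Without replicate 2 it rose in both, by 0.66 (SE 0.10, adjusted p = 0.00413) and 0.79 (SE 0.11, adjusted p = 0.00459).

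H2-Aa, the I-A alpha chain, was at 430, 394 and 434 FPKM in the ΔNp73-labelled libraries, at 375, 145 and 513 in the ΔNp63-labelled ones and at 256 and 318 in the controls. The ranking was that of H2-Ab1 in kind, with replicate 2 of the ΔNp63-labelled group below the controls and the other 5 treated libraries above them. Without replicate 2 it rose by 0.55 in the ΔNp73-labelled group (SE 0.17, adjusted p = 0.0416), and in the ΔNp63-labelled group its 0.62 just missed the threshold (SE 0.18, adjusted p = 0.0501). H2-Eb1, the I-E beta chain, averaged 349.7 ± 6.53 FPKM in the ΔNp73-labelled libraries (SD, n = 3), 304 ± 185 in the ΔNp63-labelled ones (SD, n = 3) and 242 ± 13.2 in the controls (SD, n = 2). The wide SD of the ΔNp63-labelled group comes from values of 357, 98.4 and 458 FPKM.

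Cd74, the invariant chain, had the highest level of the 9. It was at 1158, 1145 and 1248 FPKM in the ΔNp73-labelled libraries, at 892, 262 and 1177 in the ΔNp63-labelled ones and at 734 and 835 in the controls, and ranked between 35 and 70 of 13681 genes in every library but replicate 2, where it ranked 200. A second, less abundant Cd74 entry kept the same order of groups, with means of 157, 109.5 and 116 FPKM in the ΔNp73-labelled, ΔNp63-labelled and control libraries. Without replicate 2 Cd74 rose in the ΔNp73-labelled group (log2FC 0.59, SE 0.15, adjusted p = 0.025), and was at 0.39 in the ΔNp63-labelled group (SE 0.17, adjusted p = 0.141).

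The invariant chain did not keep 1 ratio to the I-A chains. Cd74 exceeded the mean of H2-Aa and H2-Ab1 by 1.36, 1.43 and 1.41 log2 units of FPKM in the ΔNp73-labelled libraries, by 1.02, 0.93 and 1.17 in the ΔNp63-labelled ones and by 1.41 and 1.42 in the controls. All 3 ΔNp63-labelled libraries, replicate 2 included, lay below the other 5. This difference of levels was picked out after its values were seen and was not tested.

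The loading genes had the largest ratios of mean FPKM to control of the 9 in the ΔNp73-labelled group, 2.04 for H2-DMb1 and 1.87 for H2-DMa. H2-DMb1, the beta chain of H2-DM, was at 33.6, 34.3 and 39.9 FPKM in the ΔNp73-labelled libraries, at 36.3, 12.5 and 37.99 in the ΔNp63-labelled ones and at 16.7 and 18.5 in the controls. H2-DMa, its alpha chain, was at 72.3, 73.7 and 72.8 FPKM in the ΔNp73-labelled libraries, at 64.4, 17.2 and 80.4 in the ΔNp63-labelled ones and at 38.3 and 39.7 in the controls. Both genes thus stood at about the same level in the 5 treated libraries other than replicate 2, with no overlap with control. Of all genes tested, 22.4% had these 5 libraries wholly above control.

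With all libraries the log2FC of H2-DMb1 was 0.99 in the ΔNp73-labelled group (SE 0.43, adjusted p = 0.243 by limma) and 0.54 in the ΔNp63-labelled group (SE 0.43, adjusted p = 0.633). Without replicate 2 it rose in both, by 0.99 (SE 0.11, adjusted p = 0.00147) and 1.04 (SE 0.12, adjusted p = 0.00245). H2-DMa then rose by 0.89 (SE 0.11, adjusted p = 0.00219) and 0.87 (SE 0.12, adjusted p = 0.00458). H2-DMb2 is a near-identical neighbour of H2-DMb1. The counting could have split reads between them, so the values of both genes, H2-DMb1 included, are uncertain. H2-DMb2 was at 66.1, 63.9 and 64.1 FPKM in the ΔNp73-labelled libraries, at 70.3, 13.98 and 52.7 in the ΔNp63-labelled ones and at 37.1 and 26.96 in the controls.

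The inhibitor genes changed less evenly. H2-Oa was at 22.8, 25.8 and 25.6 FPKM in the ΔNp73-labelled libraries, at 31.3, 14.9 and 31.0 in the ΔNp63-labelled ones and at 17.2 and 20.1 in the controls. H2-Ob was at 7.78, 9.07 and 10.2 FPKM in the ΔNp73-labelled libraries, at 8.42, 2.46 and 6.39 in the ΔNp63-labelled ones and at 5.51 and 4.88 in the controls. H2-Oa was thus highest in ΔNp63-labelled replicates 1 and 3, and H2-Ob highest in ΔNp73-labelled replicates 2 and 3.

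Without replicate 2 H2-Oa rose by 0.39 in the ΔNp73-labelled group (SE 0.11, adjusted p = 0.029) and by 0.72 in the ΔNp63-labelled group (SE 0.12, adjusted p = 0.00715). H2-Ob rose by 0.69 in the ΔNp73-labelled group (SE 0.15, adjusted p = 0.0148), with 0.43 in the ΔNp63-labelled group (SE 0.17, adjusted p = 0.107). The mean log2 FPKM of the H2-DM pair exceeded that of the H2-O pair by 1.89, 1.72 and 1.74 in the ΔNp73-labelled libraries, by 1.57, 1.28 and 1.97 in the ΔNp63-labelled ones and by 1.38 and 1.45 in the controls. The difference was thus larger than in both controls in 5 of 6 treated libraries, and was not tested.

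**Figure D2:**
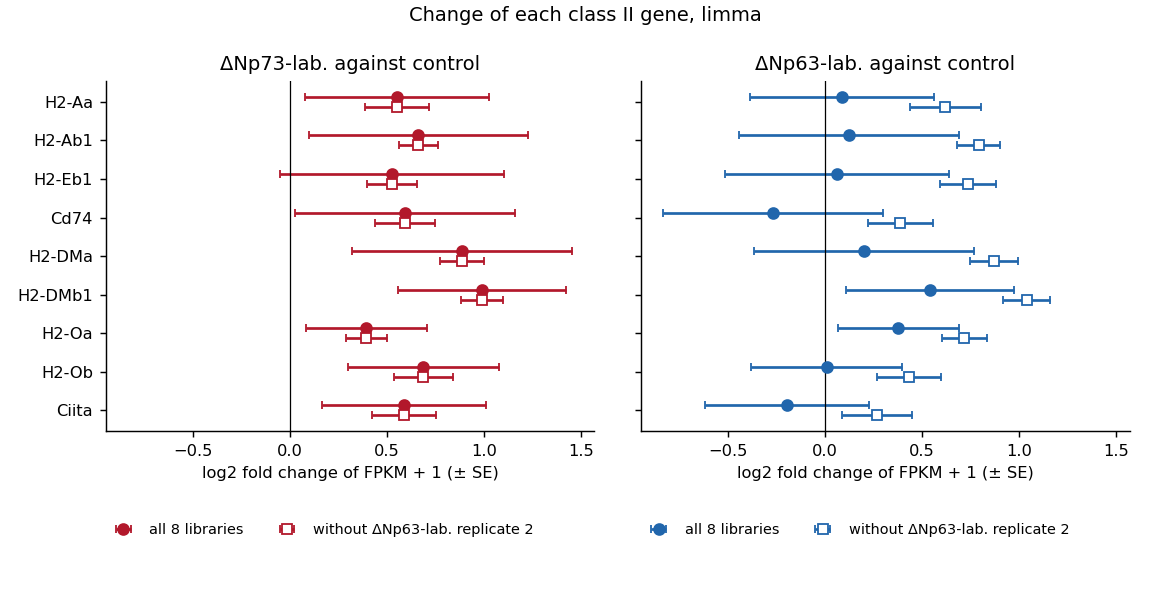
Log2 fold change against control of each class II gene (horizontal axis, log2 of FPKM + 1, bars 1 SE by limma) in the ΔNp73-labelled group at left and the ΔNp63-labelled group at right, with filled circles for all 8 libraries and open squares without ΔNp63-labelled replicate 2. At left the points hardly move and the bars shrink, while at right every point moves to the right when that library is left out.

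Ciita, the master regulator, was the least abundant member. Its main entry was at 4.598, 4.82 and 5.16 FPKM in the ΔNp73-labelled libraries, at 4.11, 0.797 and 3.29 in the ΔNp63-labelled ones and at 3.61 and 2.29 in the controls. The ΔNp73-labelled libraries lay above both controls, while ΔNp63-labelled replicate 3 lay between them. Without replicate 2 Ciita rose in the ΔNp73-labelled group (log2FC 0.59, SE 0.16, adjusted p = 0.0329), and was at 0.27 in the ΔNp63-labelled group (SE 0.18, adjusted p = 0.322).

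Ciita has alternative promoters, known in the mouse as type I (dendritic cells and macrophages), type III (B cells and plasmacytoid dendritic cells) and type IV (cells answering interferon gamma, and thymic epithelium). The table holds 3 Ciita entries, which in the GENCODE M21 annotation (GRCm38) start at 3 sites in that order, the main entry at the second. Of the 3, the type III entry alone had all ΔNp73-labelled libraries above both controls, with a mean of 4.86 ± 0.28 FPKM in the ΔNp73-labelled libraries (SD, n = 3) and 2.95 ± 0.93 in the controls (SD, n = 2). The type I entry was at 1.30, 2.22 and 3.32 FPKM in the ΔNp73-labelled libraries, at 1.90, 0.743 and 2.16 in the ΔNp63-labelled ones and at 2.43 and 1.67 in the controls.

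The type IV entry was at 3.11, 4.21 and 2.77 FPKM in the ΔNp73-labelled libraries, at 3.79, 0.81 and 4.12 in the ΔNp63-labelled ones and at 2.85 and 2.98 in the controls. The ΔNp73-labelled libraries overlap the controls for both of these entries, the ΔNp63-labelled libraries overlap them for all 3, and all 3 entries were lowest in ΔNp63-labelled replicate 2. The entries share most of their exons, so the split of reads between them is an estimate, and only the main entry was tested.

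**Figure D3:**
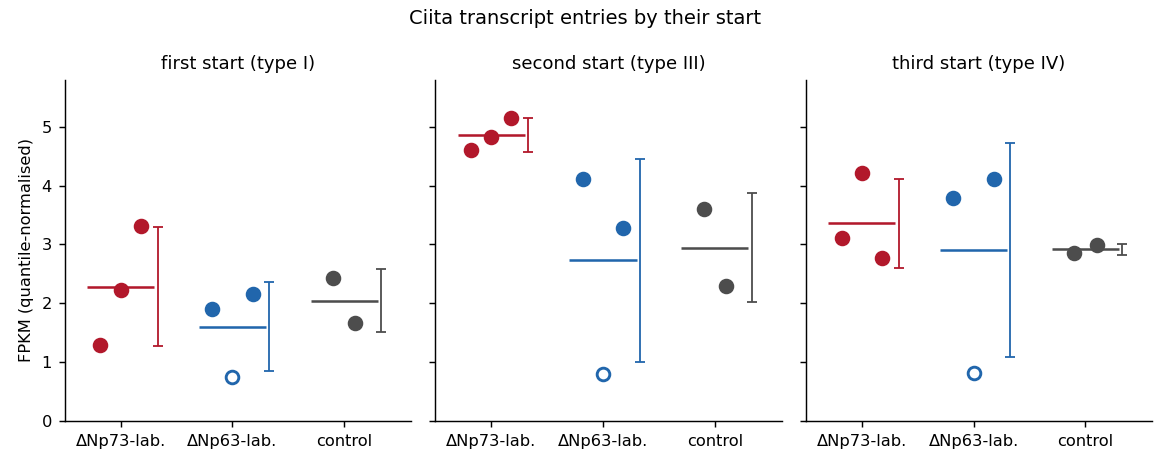
FPKM of the 3 Ciita transcript entries (linear axis from 0), ordered along the gene by the place of their start, in the ΔNp73-labelled, ΔNp63-labelled and control libraries, with 1 point per library, a line at the mean and a bar of 1 SD. The ΔNp73-labelled points clear both controls at the type III start, from 4.598 to 5.16 FPKM, and overlap them at the other starts; the open circle is ΔNp63-labelled replicate 2.

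Against the background of all genes, the calls read as follows. In the ΔNp73-labelled group 0.0464% of 12921 genes were called higher with all libraries, and 16.8% of 12782 without ΔNp63-labelled replicate 2, where 9 of 9 class II genes were. That library enters this comparison only through the shared spread, so the fold changes of the 9 genes were the same with and without it (median log2FC 0.59, against -0.071 over all genes). In a model of the ΔNp73-labelled and control libraries alone, all 9 rose as well (adjusted p from 0.00326 to 0.045), where 15.9% of genes were called higher. The groups did not overlap for any of the 9, against 27.7% of all genes that lay wholly above control. With both treated groups averaged against control, 0 of 9 passed with all libraries (0.0774% of all genes called higher) and 8 of 9 rose without replicate 2 (16.5% of all genes), with Ciita at an adjusted p of 0.0692 by limma.

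In the ΔNp63-labelled group 0.031% of genes were called higher with all libraries and 11.7% without replicate 2, where H2-Ab1, H2-Eb1, H2-DMa, H2-DMb1 and H2-Oa rose. The median log2FC of the 9 genes was 0.09 with all libraries and 0.72 without replicate 2, against -0.020 and -0.027 over all genes. Replicate 2 stood at 0.27 of the control mean for Ciita and at 0.80 for H2-Oa, the ends of the range. With it, 0 of the 9 genes lay wholly above control, against 12.6% of all genes. Without it 8 of the 9 did, Ciita being the exception, against 31.7% of all genes. All 5 remaining treated libraries lay above control for 8 of the 9 genes, against 22.4% of all genes.

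Between the ΔNp73-labelled and ΔNp63-labelled groups, both given Cre, 0 of 9 passed by limma with all libraries (0 at an unadjusted p under 0.05, adjusted p from 0.478 to 0.975), where 0.0542% of all genes were called. The largest difference was that of Cd74 (0.86, SE 0.51, adjusted p = 0.514), 1183 ± 56.1 FPKM in the ΔNp73-labelled group and 777 ± 468 in the ΔNp63-labelled group (SD, n = 3 each). Without replicate 2 the differences of the 9 genes lay between -0.32 (H2-Oa) and 0.32 (Ciita), 4 of them above 0, and 0 passed (1 at an unadjusted p under 0.05), where 0.149% of all genes were called. A p that misses the threshold does not show that the groups are alike.

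H2-Ea, the alpha chain gene of I-E, did not vary with them. It was at 424, 396 and 513 FPKM in the ΔNp73-labelled libraries, at 389, 0.786 and 5.51 in the ΔNp63-labelled ones and at 273 and 0.378 in the controls. Within 5 libraries it stood beside H2-Aa and H2-Eb1, and in the other 3 it was near 0 while those genes were not. The controls differed 721-fold in H2-Ea, and by 1.02-fold (H2-Ab1) to 1.58-fold (Ciita) in the 9 class II genes.

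The table lists this gene as H2-Ea-ps, and RefSeq annotates it as a transcribed pseudogene in the C57BL/6J reference. Mice of the H2b haplotype, C57BL/6 among them, carry a deletion at the start of H2-Ea and make no I-E. The labels give C57BL/6 for all 8 tumours, while 5 libraries held H2-Ea at 273 FPKM or more. The MHC haplotype of the mice was not tested. By limma H2-Ea did not pass in the ΔNp73-labelled group (log2FC 4.51, SE 2.65, adjusted p = 0.359) or the ΔNp63-labelled group (-0.23, SE 2.65, adjusted p = 0.982). Its values split within both the ΔNp63-labelled and the control group. Its difference between the controls, 7.63 log2 units of FPKM + 1, ranked 8 of 12921 genes.

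**Figure D4:**
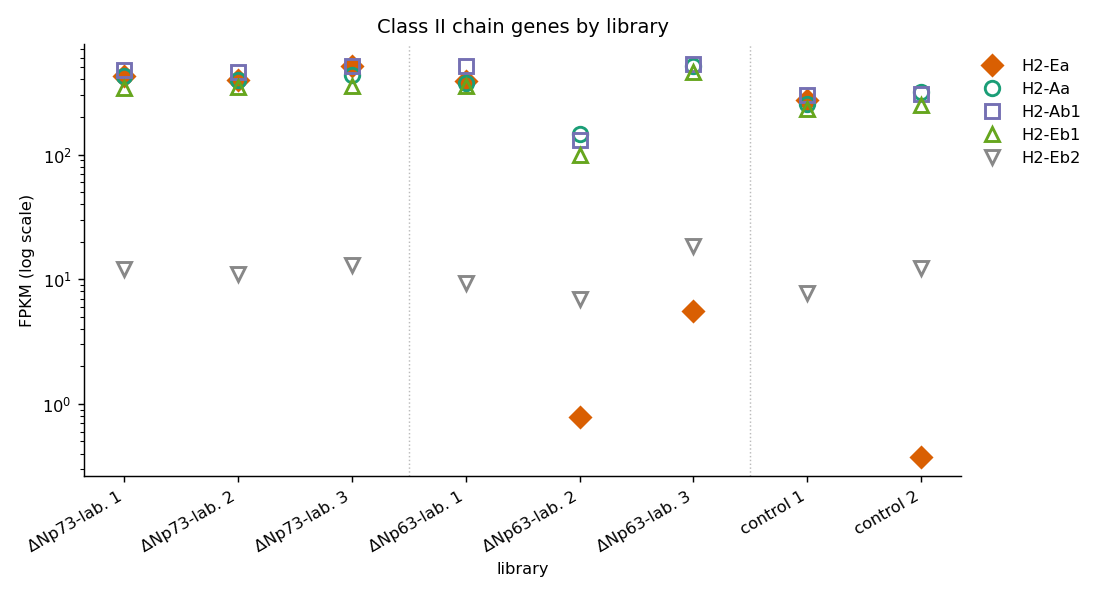
FPKM on a log axis of H2-Ea (filled diamonds), H2-Aa, H2-Ab1, H2-Eb1 and H2-Eb2 (open symbols) in each of the 8 libraries, ordered by group. H2-Ea sits with the other abundant chains in all 3 ΔNp73-labelled libraries, ΔNp63-labelled replicate 1 and control 1, and at 0.378 to 5.51 FPKM in the remaining 3.

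H2-Eb2, a further beta gene of the region, was at 12.01, 10.96 and 13.1 FPKM in the ΔNp73-labelled libraries, at 9.29, 6.94 and 18.5 in the ΔNp63-labelled ones and at 7.77 and 12.4 in the controls, and its groups overlapped. It did not pass with all libraries in the ΔNp73-labelled group (0.26 on the log2 scale, SE 0.37, adjusted p = 0.705 by limma) or the ΔNp63-labelled group (0.11, SE 0.37, adjusted p = 0.935), nor without replicate 2.

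The DNA-binding partners of CIITA did not rise with the class II genes. Without replicate 2, 4 of 7 fell in the ΔNp73-labelled group (Nfya, Nfyb, Nfyc and Rfxank) and 4 of 7 in the ΔNp63-labelled group (Nfya, Nfyb, Nfyc and Creb1), where 16.1% and 10.8% of all genes fell. Nfya, the NF-Y subunit that contacts DNA, was at 9.06, 10.9 and 12.4 FPKM in the ΔNp73-labelled libraries, at 8.16, 10.2 and 9.10 in the ΔNp63-labelled ones and at 17.4 and 18.7 in the controls. Neither treated group overlapped control, replicate 2 included, while the treated groups overlapped each other. The share of all genes lying wholly below control was not computed. The log2FC of Nfya by limma was -0.70 (SE 0.14, adjusted p = 0.00993) and -0.98 (SE 0.15, adjusted p = 0.00584) without replicate 2. Rfx5, an RFX subunit, did not pass, at 0.066 (SE 0.14, adjusted p = 0.731) and 0.015 (SE 0.15, adjusted p = 0.951). With all libraries 0 of the 7 passed by limma in either comparison (4 lower at an unadjusted p under 0.05 in the ΔNp73-labelled group and 3 in the ΔNp63-labelled group). The share of all genes lower at that level was not computed.

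Most genes of the endosomal steps rose without replicate 2, 9 of 10 in the ΔNp73-labelled group (median log2FC 1.58) and 8 of 10 in the ΔNp63-labelled group (median 1.20), where 16.8% and 11.7% of all genes did, with Ctsl not passing in either and Marchf8, a ligase, missing the threshold in the ΔNp63-labelled group at 0.62 (SE 0.18, adjusted p = 0.0507 by limma). Ctss, cathepsin S, which trims the invariant chain in bone marrow derived cells, was at 255, 202 and 142 FPKM in the ΔNp73-labelled libraries, at 128, 40.96 and 145 in the ΔNp63-labelled ones and at 35.1 and 38.0 in the controls. Here replicate 2 was above both controls, unlike for the class II genes.

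Ctsl, cathepsin L, which does the same work in thymic epithelium, was at 466, 569 and 539 FPKM in the ΔNp73-labelled libraries, at 462, 90.7 and 582 in the ΔNp63-labelled ones and at 582 and 592 in the controls. It was at -0.17 (SE 0.15, adjusted p = 0.407) and -0.18 (SE 0.16, adjusted p = 0.45) without replicate 2. Lgmn, the asparagine endopeptidase legumain, had the largest rise of the list without that library (2.74, SE 0.21, adjusted p = 0.000731 and 2.17, SE 0.23, adjusted p = 0.00216). Ifi30, the lysosomal thiol reductase, rose by 1.61 (SE 0.13, adjusted p = 0.000788) and 1.08 (SE 0.14, adjusted p = 0.00363), and Marchf1, a ligase that removes class II from the surface, by 1.65 (SE 0.14, adjusted p = 0.000838) and 1.17 (SE 0.15, adjusted p = 0.0033). With all libraries 0 of the 10 passed by limma (8 higher at an unadjusted p under 0.05 in the ΔNp73-labelled group and 4 in the ΔNp63-labelled group). At that level 11.4% of all genes were higher in the ΔNp73-labelled group and 5.96% in the ΔNp63-labelled group.

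Of 10 genes listed for the interferon gamma axis, which induces Ciita, 9 were in the table and Ifng was not used here. Without replicate 2, 6 rose and 1 fell in the ΔNp73-labelled group, where 16.8% of all genes rose and 16.1% fell. In the ΔNp63-labelled group 5 rose and 1 fell, where 11.7% of all genes rose and 10.8% fell. Irf8, a factor of myeloid and B cells, rose by 1.04 (SE 0.083, adjusted p = 0.000783) and 0.86 (SE 0.091, adjusted p = 0.00216). The receptor chains moved apart. Ifngr1 was at 81.5, 78.0 and 76.6 FPKM in the ΔNp73-labelled libraries, at 56.1, 18.8 and 68.0 in the ΔNp63-labelled ones and at 119 and 127 in the controls, and without replicate 2 it fell by 0.64 (SE 0.11, adjusted p = 0.00615) and fell by 0.98 (SE 0.12, adjusted p = 0.00282). Ifngr2 was at 28.1, 32.1 and 28.2 FPKM in the ΔNp73-labelled libraries, at 27.5, 15.01 and 28.3 in the ΔNp63-labelled ones and at 16.7 and 18.6 in the controls, and rose by 0.71 (SE 0.10, adjusted p = 0.00325) and 0.63 (SE 0.11, adjusted p = 0.00935). With all libraries 0 of the 9 passed by limma in either comparison (4 higher and 0 lower at an unadjusted p under 0.05 in the ΔNp73-labelled group, 0 higher and 1 lower in the ΔNp63-labelled group). Of all genes, 11.4% were higher at that level in the ΔNp73-labelled group and 5.96% in the ΔNp63-labelled group. The share lower was not computed.

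Markers of the cells that can carry class II were measured in the same libraries. In tumour tissue fewer cells of a type and less RNA per cell cannot be told apart. The 12 macrophage and monocyte markers summed to 1029 to 1336 FPKM in the ΔNp73-labelled libraries, 431 to 1132 in the ΔNp63-labelled ones and 395 to 449.7 in the controls. Without replicate 2 all 12 rose in the ΔNp73-labelled group and 11 in the ΔNp63-labelled group (median log2FC 1.56 and 1.44), where 16.8% and 11.7% of all genes did. The summed class II genes were at 2492 to 2700 FPKM in the ΔNp73-labelled libraries, 684 to 2843 in the ΔNp63-labelled ones and 1604 to 1796 in the controls. In replicate 2 the macrophage sum, 431 FPKM, lay within the controls, while the class II sum, 684 FPKM, lay far below them.

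The 10 B cell markers summed to 50.1 to 52.9 FPKM in the ΔNp73-labelled libraries, 8.32 to 78.1 in the ΔNp63-labelled ones and 39.7 to 41.6 in the controls, with the 8.32 in replicate 2. Cd79a, part of the B cell receptor, was at 21.5, 17.7 and 19.9 FPKM in the ΔNp73-labelled libraries, at 37.3, 2.23 and 19.5 in the ΔNp63-labelled ones and at 15.7 and 14.3 in the controls. Cd79a was thus low in replicate 2 as the class II genes were. Cd22, of the same list, was not, at 2.53 FPKM in replicate 2 and 1.91 and 2.23 in the controls. Without that library 1 B cell gene rose and 1 fell in the ΔNp73-labelled group (median 0.079), and 1 rose in the ΔNp63-labelled group (median 0.36), counts of 10 that are no higher than the shares of all genes called (16.8% higher and 16.1% lower, and 11.7% higher).

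Dendritic cell markers (9 of 10 in the table) summed to 47.7 to 57.0 FPKM in the ΔNp73-labelled libraries, 18.4 to 58.1 in the ΔNp63-labelled ones and 34.9 to 38.2 in the controls. The 18.4 was that of replicate 2, below both controls as for the B cell sum. Without replicate 2, 5 of 8 tested rose in the ΔNp73-labelled group and 2 in the ΔNp63-labelled group, Itgax (CD11c) in both, and 1 fell in each, against 16.8% and 11.7% of all genes higher and 16.1% and 10.8% lower. The 10 thymic epithelial markers summed to 826 to 1059 FPKM in the ΔNp73-labelled libraries, 162 to 939 in the ΔNp63-labelled ones and 815 to 826 in the controls. The 162 was that of replicate 2, again below both controls. Of these 10 markers, 3 rose in the ΔNp73-labelled group and 1 in the ΔNp63-labelled group without replicate 2, against 16.8% and 11.7% of all genes, and the sums of the ΔNp73-labelled and control libraries overlapped. Ctsl, also listed with the endosomal genes, made up most of each sum. It was at 466, 569 and 539 FPKM in the ΔNp73-labelled libraries and at 582 and 592 in the controls. The overlap of the sums therefore says little about the other epithelial markers.

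The 14 thymocyte and T cell genes summed to 2281 to 3678 FPKM in the ΔNp73-labelled libraries, 2218 to 4383 in the ΔNp63-labelled ones and 5135 to 5955 in the controls. No normal thymus was among the samples, so these sums do not check the labelled tumour type. Without replicate 2, 10 of the 14 genes fell in the ΔNp73-labelled group, where 16.1% of all genes fell, and 2 in the ΔNp63-labelled group, against 10.8% of all genes. With all libraries 0 genes of these 5 marker lists passed by limma in either comparison. At an unadjusted p under 0.05, 11.4% of all genes were higher in the ΔNp73-labelled group and 5.96% in the ΔNp63-labelled group. The share lower was not computed. At this level 12 macrophage genes were higher in the ΔNp73-labelled group and 8 in the ΔNp63-labelled group, with none lower. At the same level the thymocyte list had 6 genes lower for the ΔNp73-labelled group and 3 for the ΔNp63-labelled group, with none higher. Dendritic cell genes had 2 higher and 1 lower in the ΔNp73-labelled group and 1 of each in the ΔNp63-labelled group. B cell genes had 1 higher and 1 lower in each group, and 1 thymic epithelial gene was higher in the ΔNp73-labelled group. No marker was at 0 in any library. The part of each cell type in the class II differences was not tested.

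**Figure D5:**
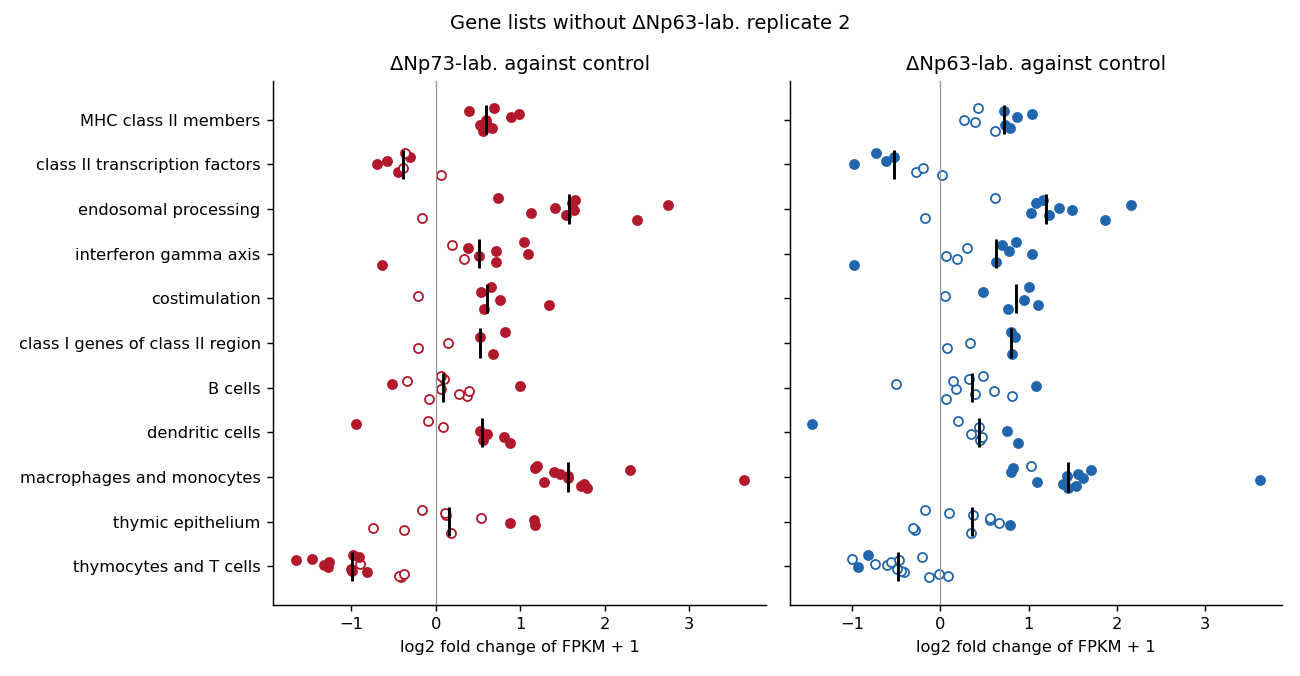
Log2 fold change against control (horizontal axis, log2 of FPKM + 1) of each gene in 11 lists, without ΔNp63-labelled replicate 2, for the ΔNp73-labelled group at left and the ΔNp63-labelled group at right. Filled points passed an adjusted p of 0.05 by limma, open points did not, and black lines are list medians. The class II genes sit at 0.59 and 0.72. The cell lists sit at 0.079 and 0.36 (B cells), 0.54 and 0.44 (dendritic cells), 1.56 and 1.44 (macrophages), 0.15 and 0.36 (thymic epithelium) and -0.99 and -0.48 (thymocytes). The interferon gamma list sits at 0.52 and 0.63, costimulation at 0.61 and 0.85, and the class I list at 0.53 and 0.80.

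Among the 8 libraries, the members differed from the mean of the other members by a root mean square of 0.12 (H2-Ab1) to 0.34 (H2-Oa) log2 units, after each gene was centred on its own mean. The mean profile of the 9 was 0.31, 0.35 and 0.45 in the ΔNp73-labelled libraries, 0.31, -1.27 and 0.42 in the ΔNp63-labelled ones and -0.31 and -0.26 in the controls. Among 8037 other genes with a mean of at least 5 FPKM, the most similar were Fam102a (0.068), Itgb2 (0.074), Rasa3 (0.098), Tspan9 (0.11), Tmem50b (0.11), Itga6 (0.11), Gramd1a (0.11) and Cytip (0.12). Itgb2, the beta chain of the leukocyte integrins, was the only 1 of these 8 that stayed among the closest 8 without replicate 2. H2-DMb2 ranked 374 by this measure, H2-Eb2 1277 and H2-Ea 8022. The 8 most similar genes lay closer to the mean profile than any member lay to the mean of the other members. They were picked as the closest of 8037, and the 2 reference means differ, so that comparison is a description only. Genes outside the set thus shared the pattern, which is not particular to the class II genes.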

How the data were processed

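The deposited table gives FPKM for RefSeq transcripts, which the authors quantile-normalised, per the file headers; per the submitters' processing notes, TopHat2 2.0, Cufflinks 2.0 and mm9 were used, with roles not given. Quantile normalisation hides any change in total RNA, and with no counts the depth is unknown, so no counting interval is given.

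From 16589 entries, the entry with the highest mean was kept per symbol, after 35 date-like symbols were restored by RefSeq identifier. Genes with at least 1 FPKM in at least 2 libraries were analysed as log2(FPKM + 1), which understates changes of low genes, with limma 3.58.1 in R 4.3.3 (empirical Bayes with trend, two-sided, all groups in 1 model, 5 residual degrees of freedom) and Benjamini-Hochberg adjustment over all genes tested (threshold 0.05). The script was tested on simulated data.

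The members, gene lists and naming rule (members, class II and pathway lists, leading or called markers, the 8 most similar genes) were chosen with earlier results of these data known. Alternatives were other pseudocounts, no filter, summed entries, 2-group models, no trend, array weights and leaving out each library.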

Additional observations from a re-analysis of the deposited data

How the results depend on the processing

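The number of all genes called against control in the ΔNp73-labelled group, 7 with all libraries, was 18 at a pseudocount of 0.1, 15 at a pseudocount of 5, 3890 in a model of the 2 groups alone and 6569 with array weights. In the ΔNp63-labelled group it was 12, against 5 in the 2-group model and 4480 with array weights. With both groups averaged it was 15, against 8 at a pseudocount of 5, 9 without the trend and 6296 with array weights. Between the ΔNp73-labelled and ΔNp63-labelled groups it was 7, against 344 with array weights. Leaving out 1 library gave ranges of 0 to 4212, 3 to 2882, 0 to 4194 and 6 to 19 for these comparisons in that order, with the upper ends without ΔNp63-labelled replicate 2. Of the 9 class II genes, 9 rose in the ΔNp73-labelled group in the 2-group model and 9 with array weights, 6 in the ΔNp63-labelled group with array weights and 9 with both groups averaged and array weights, and the leave-one-out counts ran from 0 to 9, 0 to 5 and 0 to 8 in those 3 comparisons. In the 2-group model 15.9% of all genes were called higher. With array weights that share was not computed, and 6569, 4480 and 6296 of 12921 genes were called in either direction. The upper leave-one-out counts are those without ΔNp63-labelled replicate 2, where 16.8%, 11.7% and 16.5% of all genes were called higher. All 9 class II genes kept a log2 fold change above 0 in the ΔNp73-labelled group against control under each of the 15 alternatives. Every ΔNp73-labelled library lay above both controls for these genes, so only summing entries could have turned a sign. The steady direction is thus a description and not a check.

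Directions turned for these log2 fold changes. With array weights, the ΔNp63-labelled group stood at 0.28 for Cd74, 0.28 for Ciita, 2.24 for H2-Ea and 0.037 for Rfx5 against control, and the ΔNp73-labelled group stood at -0.015 for H2-Aa, -0.12 for H2-Ab1, -0.11 for H2-Eb1, -0.041 for H2-DMb1 and -0.26 for H2-Oa against the ΔNp63-labelled group. At a pseudocount of 0.1, H2-Ob was at -0.020 and H2-Ea at 0.13 in the ΔNp63-labelled group. Leaving out 1 library at a time, the ΔNp63-labelled group ranged from -0.29 to 0.62 for H2-Aa, -0.23 to 0.79 for H2-Ab1, -0.37 to 0.74 for H2-Eb1, -0.69 to 0.39 for Cd74, -0.49 to 0.27 for Ciita, -0.21 to 0.87 for H2-DMa, -0.29 to 0.43 for H2-Ob, -4.05 to 3.59 for H2-Ea, -0.20 to 0.92 for H2-DMb2, -0.26 to 0.41 for H2-Eb2 and -0.12 to 0.058 for Rfx5. The ΔNp73-labelled group ranged from -0.042 to 0.57 for H2-Eb2 and -0.023 to 0.17 for Rfx5. Both groups averaged ranged from -0.050 to 0.49 for Cd74 and -0.046 to 0.44 for Ciita. The ΔNp73-labelled group against the ΔNp63-labelled group ranged from -0.067 to 0.84 for H2-Aa, -0.13 to 0.89 for H2-Ab1, -0.21 to 0.90 for H2-Eb1, -0.049 to 0.72 for H2-DMb1 and -0.32 to 0.19 for H2-Oa. The cause of these turns was not tested.

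No paired analysis was possible because the labels pair no libraries across groups; the replicate numbers used here only name libraries in order of deposit. The calls on class II genes rest on whether 1 library is counted, with 2 controls and an unknown depth. A fit that leaves out a control has 1 control library, taken to vary like the other groups.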

Other observations

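Costimulatory genes, which accompany class II on presenting cells, stood above control as well. Without ΔNp63-labelled replicate 2, 5 of 6 rose in the ΔNp73-labelled group and 5 of 6 in the ΔNp63-labelled group, where 16.8% and 11.7% of all genes did. Cd86, a ligand of CD28, was at 17.9, 21.6 and 16.8 FPKM in the ΔNp73-labelled libraries, at 15.4, 3.93 and 16.1 in the ΔNp63-labelled ones and at 6.24 and 7.32 in the controls. Cd83, a marker of mature dendritic cells that did not pass, was at 13.5, 17.8 and 17.6 FPKM in the ΔNp73-labelled libraries, at 16.2, 4.80 and 24.0 in the ΔNp63-labelled ones and at 20.6 and 17.4 in the controls.

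The genes of class I peptide supply that lie in or near the class II region split. Without replicate 2, Tap1, Psmb9 and Tapbp rose in both groups, where 16.8% and 11.7% of all genes did, while Tap2 and Psmb8 passed in neither. Tap2, which pairs with Tap1 in the peptide transporter, was at 39.6, 40.4 and 41.5 FPKM in the ΔNp73-labelled libraries, at 49.5, 44.9 and 49.7 in the ΔNp63-labelled ones and at 45.4 and 48.6 in the controls. Replicate 2 held Tap2 at the level of the other libraries, unlike the class II genes around it. With all libraries 0 genes of either list passed by limma. At an unadjusted p under 0.05, 1 costimulatory gene was higher in the ΔNp73-labelled group and 0 in the ΔNp63-labelled group, with 0 of the class I genes in both. Of all genes, 11.4% and 5.96% were higher at that level in these groups.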
